A study of Drosophila melanogaster with 7 samples.

Results

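The long genes of the Drosophila melanogaster autosomes were examined in the larval central nervous system after knockdown of ISWI, the ATPase of a family of nucleosome remodelling complexes. Members were the protein-coding rows of the authors' deposited table on chromosome arms 2L, 2R, 3L and 3R with a genomic span, end minus start, of at least 50 kb. The dpr, DIP, beat and side families and the genes Myo81F, Parp, AGO3 and MFS17 were left out. That gave 45 genes of 2366 rows, and the comparison group was 1795 shorter autosomal protein-coding rows, chosen with the same exclusions. The experiment compared 4 libraries of genotype elav-GAL4>UAS-ISWI RNAi with 3 libraries of genotype elav-GAL4; +, so that both groups shared elav-GAL4, which drives expression in neurons of the whole nervous system. Each library pooled about 40 brains with ventral nerve cord, taken 4 days after egg lay at 25 °C. The tissue also holds glia and neural stem cells, so a change of level in part of the cells and a change in the number of those cells cannot be told apart. Each group is 1 genotype, and the column header of the authors' deposited table calls the control attp2, the name of a landing site for transgenes.

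Most fly genes are short, and a gene of over 50 kb usually owes its span to introns. Such genes are frequent among cell adhesion proteins, receptors, signalling proteins and regulators of the nervous system, and their introns often contain other, smaller genes. A second class of long gene lies in the heterochromatin next to the centromeres, where introns are swollen by repeated sequence. ISWI slides and spaces nucleosomes, and its loss is known to change the structure of the fly's chromosomes.

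The authors' deposited table gives 1 log2 fold change per gene, ISWI knockdown over control, with a DESeq2 p-value and adjusted p, and it holds only genes with p under 0.1. No value of a single library was used here, and the spread among libraries is known only from the authors' p. The standard errors (SE) and 95% intervals given below were worked out from each fold change and its p. Iswi itself was at 24.6% of control in the authors' deposited table (SE 0.06 in log2 units). Of 10775 genes tested, 2312 (21.5%) were listed at p under 0.1, 1104 (10.2%) with a positive and 1208 (11.2%) with a negative fold change. A gene is called here when its adjusted p is under 0.05, which 501 genes (4.65%) were, 222 (2.06%) higher and 279 (2.59%) lower. Of 20 pan-neuronal marker genes 3 were listed, so the table holds little on the tissue's defining genes.

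Among the 45 long genes, 30 had a positive and 15 a negative fold change in that comparison, as given in the authors' deposited table. That is 66.7% positive, against 48.7% of the shorter autosomal genes (874 of 1795) and 48.4% of all rows. The median log2 fold change was 0.19 for the long genes and -0.10 for the shorter ones. The share of listed genes that were called was nearly the same in both, 9 of 45 (20%) and 368 of 1795 (20.5%). The direction of calls was alike when all regions were pooled, with 4 of 9 long genes and 165 of 368 shorter genes higher (44.4% and 44.8%). Next to the centromeres, in regions defined below, all 4 calls among long genes and all 22 among shorter ones were lower. Elsewhere 4 of 5 called long genes were higher (80%), against 165 of 346 shorter ones (47.7%). The contrast with shorter genes in the sign of changes is described here and was not tested. Most of the positive changes were small, with a median of 1.18-fold.

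The sign of a long gene's change went with its place on the chromosome arm. All 10 long genes next to a centromere had negative fold changes in the authors' deposited table, with a median of -0.34. Of the 35 long genes elsewhere, 30 were positive and 5 negative (85.7% positive), with a median of 0.22. The same regions held 43 shorter genes, of which 2 were positive, while 872 of 1752 shorter genes elsewhere were positive (49.8%). Low values near the centromeres were thus shared by long and short genes, and the excess of positive values among long genes was found away from them. These regions are the ends of 2L past 22 Mb and of 3L past 23 Mb, and the first 5.4 Mb of 2R and 4.2 Mb of 3R, approximate limits chosen with earlier results of these data known. By arm, away from the centromeres, positive values came from 7 of 8 long genes on 2L, 14 of 15 on 2R, 6 of 6 on 3L and 3 of 6 on 3R.

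**Figure D1:**
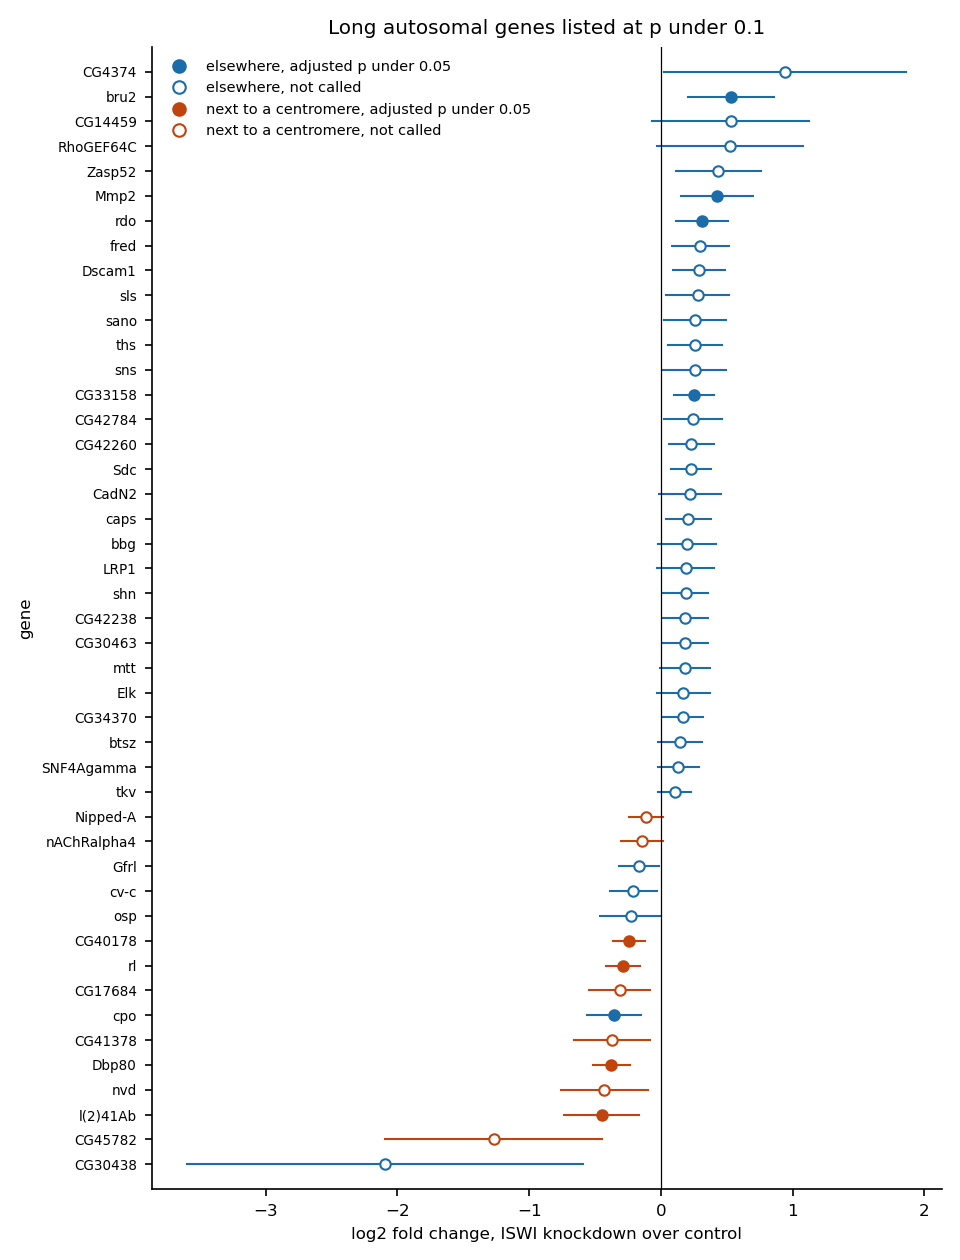
Log2 fold change between ISWI knockdown and control (x axis) for each of the 45 long autosomal genes (y axis, ordered by value). Points are the authors' values, lines the 95% intervals worked out from their p, filled points have an adjusted p under 0.05, and colours separate the 10 genes next to a centromere, all below 0, from the 35 elsewhere, of which 30 are above 0.

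The 4 long genes that rose were bru2, Mmp2, rdo and CG33158, and none of them lies next to a centromere. bru2, which encodes an RNA-binding protein of the Bruno family of splicing and translation regulators, rose by 0.54 in log2 units in the authors' deposited table, to 145% of control (FBgn0262475, 2L, 12344219 to 12397528, SE 0.17, adjusted p 0.033). With a mean normalised count of 191 it was also the least abundant of the 4. Mmp2, a matrix metalloproteinase that remodels tissues, reached 135% of control in the authors' deposited table (FBgn0033438, 2R, 9611139 to 9683858, log2 fold change 0.43, SE 0.14, adjusted p 0.044). rdo (reduced ocelli) stood at 124% of control in the authors' deposited table, with a log2 fold change of 0.31 (FBgn0243486, 2L, 18012380 to 18070246, SE 0.10, adjusted p 0.041). CG33158 was at 119% of control in the authors' deposited table, with a log2 fold change of 0.25 (FBgn0053158, 3L, 16419597 to 16496560, SE 0.08, adjusted p 0.031).

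CG33158 encloses dsx-c73A on the opposite strand, and that gene fell by 5.02 in log2 units in the authors' deposited table. CG42514, at the other end of the same span and also on the opposite strand, fell by 0.44, while aos (argos, an inhibitor of the EGF receptor) between them was listed at 0.23 in the authors' deposited table and not called. The use of strand in the authors' counts is not stated, so the value of CG33158 is uncertain. Without it 29 of 34 long genes away from the centromeres were positive.

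The 5 long genes that fell were Dbp80, rl, CG40178, l(2)41Ab and cpo, and only cpo lies away from the centromeres. Dbp80, a DEAD-box RNA helicase, had the smallest adjusted p of the 45, 1.1e-05, and stood at 77.1% of control in the authors' deposited table (FBgn0024804, 3L, 27279316 to 27422159, log2 fold change -0.38, SE 0.07). rl (rolled), the ERK kinase at the end of the receptor tyrosine kinase pathway, was at 81.9% of control in the authors' deposited table (FBgn0003256, 2R, 1071462 to 1125927, log2 fold change -0.29, SE 0.07, adjusted p 5.6e-04). CG40178 on 3L, spanning 216 kb, fell to 84.5% of control in the authors' deposited table (adjusted p 0.0043). In the authors' deposited table l(2)41Ab on 2R fell to 73.2% of control, at a mean count of 196 (adjusted p 0.042). cpo (couch potato), an RNA-binding protein of the peripheral and central nervous system, stood at 78.2% of control in the authors' deposited table (FBgn0263995, 3R, 17919832 to 18018892, log2 fold change -0.35, SE 0.11, adjusted p 0.021). The annotation has 1 other feature within the span of cpo and no protein-coding gene there, which sets it apart from CG33158.

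The 8 adhesion and cell surface genes were all positive in the authors' deposited table, from 0.19 to 0.31 in log2 units, and rdo was the only call among them. All of them lie away from the centromeres, where 30 of 35 long genes of any role were positive (85.7%). Roles here and below were given to the listed members only. Dscam1, the homophilic immunoglobulin receptor whose many splice forms let neurites recognise themselves, was among the most abundant members with a mean count of 9071. It was listed at 0.29 (SE 0.10, adjusted p 0.067) in the authors' deposited table, short of the threshold. Sdc (syndecan), a heparan sulphate proteoglycan that binds the guidance cue Slit, was similar at 0.23 and a mean count of 8827 (adjusted p 0.068, the authors' deposited table). fred (friend of echinoid), an immunoglobulin protein, and sns (sticks and stones), a relative of nephrin that acts in myoblast fusion, were at 0.30 and 0.26 in the authors' deposited table. CadN2, a neural cadherin, caps (capricious), a leucine-rich repeat protein of target recognition, and LRP1, a member of the LDL receptor family, were listed in the authors' deposited table at 0.22, 0.21 and 0.19. Their SEs run from 0.08 to 0.12, about as wide as the range of the 8 values, so no order among them can be read.

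Receptors, channels and ligands were split in the authors' deposited table, with 4 positive and 2 negative members. None was called by the DESeq2 adjusted p, and 2 of the 6, ths and Gfrl, had an unadjusted p under 0.05. The FGF ligand ths (thisbe) had the smallest adjusted p of the group, 0.16, at 0.26. mtt (mangetout), of the metabotropic glutamate receptor family, the potassium channel gene Elk and the BMP receptor tkv (thickveins) were at 0.18, 0.17 and 0.10 in the authors' deposited table. Gfrl, a receptor-like protein of the GDNF family, was at -0.17, and nAChRalpha4, a nicotinic acetylcholine receptor subunit whose gene lies next to the centromere of 3L, was at -0.14.

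The 8 genes of intracellular signalling and polarity included 5 positive and 3 negative members, of which rl was the only call. RhoGEF64C, a guanine nucleotide exchange factor, had a positive value of 0.53 in the authors' deposited table, but at a mean count of 76.4 its SE was 0.28. sano (serrano, planar cell polarity), bbg (big bang, a PDZ protein), btsz (bitesize, a synaptotagmin-like protein) and SNF4Agamma (a subunit of AMP-activated kinase) were at 0.26, 0.20, 0.15 and 0.13 in the authors' deposited table. cv-c, a GTPase-activating protein, and osp (outspread) were at -0.21 (adjusted p 0.21) and -0.23 (adjusted p 0.35) in the authors' deposited table. shn (schnurri), a zinc finger factor of BMP signalling, was at 0.19, and Nipped-A, the fly TRRAP protein of histone acetyltransferase complexes, was at -0.11 at the highest mean count of all members, 9617.

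The sarcomere genes sls, which encodes the titin-like protein of fly muscle, and Zasp52, a Z-disc protein, were at 0.28 (adjusted p 0.22) and 0.44 (adjusted p 0.12) in the authors' deposited table. Muscle markers were listed in 11 of 20 cases in the authors' deposited table, all positive from 0.28 to 0.71, and 3 were called. These 11 include sls and Zasp52 themselves, with sls at the lower end. Only the other listed markers can therefore be set beside the sign of these 2 genes. Of 16 hemocyte markers 10 were listed, and these were positive too, from 0.96 to 1.54 in the authors' deposited table. Of these 10, 2 were called. Among all tested genes 21.5% were listed and 4.65% called. The part of other tissue in the pools in the values of muscle and hemocyte genes was not tested. Without the 2 sarcomere genes, 28 of 33 long genes away from the centromeres were positive, with a median of 0.21. Of 20 glial genes the authors' deposited table holds 6, 2 positive and 4 negative.

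Of 4 genes of metabolism and transport 3 were negative, none was called by the DESeq2 adjusted p (all 4 had an unadjusted p under 0.05), and 2 of the 3, nvd and CG45782, lie next to the centromere of 3L, where all members were negative. nvd (neverland), the oxygenase that starts ecdysone synthesis in the prothoracic gland, was at -0.43 (SE 0.17, adjusted p 0.15) in the authors' deposited table. CG45782, named lovit in the reference annotation and required for vesicular loading of histamine in photoreceptors, spans 434 kb, the longest member. In the authors' deposited table it was at -1.27 with a mean count of 19.9 (SE 0.42, adjusted p 0.053). CG30438, named Ugt50B3 in the reference and a UDP-glycosyltransferase by its name, had the most negative value, -2.09, with the lowest mean count, 7.88, and the widest SE, 0.77, in the authors' deposited table. It lies at 5.5 Mb on 2R, just outside the region counted as next to the centromere. CG30463 (Pgant9 in the reference, a glycosyltransferase of the GalNAc family) was at 0.18 in the authors' deposited table. The remaining genes carry no role here. CG17684 and CG41378, both next to the centromere of 2R, were at -0.31 and -0.37 in the authors' deposited table. CG42260, CG42784, CG42238 and CG34370 were at 0.23, 0.25, 0.19 and 0.17 in the authors' deposited table, and CG4374 and CG14459, with mean counts of 20.2 and 71.2, at 0.94 and 0.53 with SEs of 0.47 and 0.30.

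Of the 10 longest members, 8 had a negative value in the authors' deposited table. Among these 8, 5 lie next to a centromere. CG45782 is followed by CG17684 (396 kb), CG40178 (216 kb), Dbp80 (143 kb), bbg (123 kb), Gfrl (106 kb), RhoGEF64C (103 kb), cpo (99.1 kb), l(2)41Ab (94.5 kb) and osp (90.1 kb). The authors' deposited table has 7 with at least 100 kb, 2 positive and 5 negative, and 4 of those 5 are next to a centromere.

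**Figure D2:**
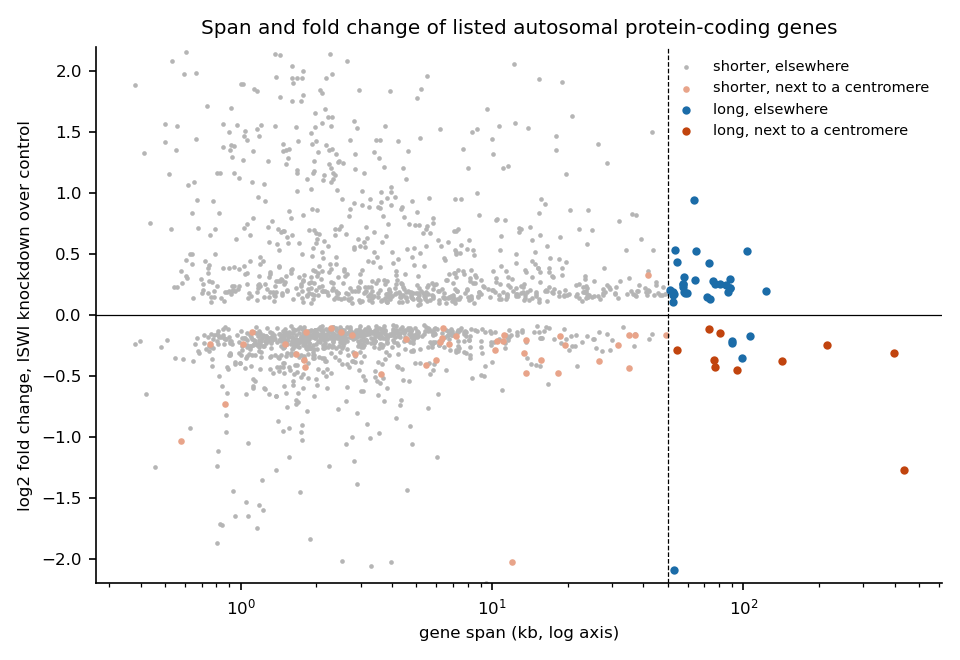
Log2 fold change (y axis) against gene span in kb (log x axis) for listed autosomal protein-coding genes, with a dashed line at 50 kb and colours for long and shorter genes next to a centromere or elsewhere. The gap around 0 exists because only genes with p under 0.1 are listed, 98 shorter genes lie beyond the plotted range of 2.2 in either direction, and the long genes away from the centromeres sit mostly above 0 while those next to one sit below it.

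The share of positive values was larger at longer spans well below the limit of 50 kb. Away from the centromeres it was 43.1% of 652 listed genes under 2 kb and 43.2% of 607 from 2 to 5 kb in the authors' deposited table. It was 56.9% of 246 from 5 to 10 kb, 75.2% of 145 from 10 to 20 kb, 78.4% of 102 from 20 to 50 kb and 87.5% of 32 from 50 to 100 kb. This last class held 4 negative genes, CG30438 (52.9 kb), cv-c (90.0 kb), osp (90.1 kb) and cpo (99.1 kb). Within it cv-c, osp and cpo were the longest, so the positive values of the class all lay at spans under 90.0 kb. Only 3 listed genes there had 100 kb or more, 2 of them positive. The medians in the authors' deposited table were -0.15 under 2 kb, -0.12 from 2 to 5 kb and 0.13 from 5 to 10 kb. Above that they showed no further steady rise, at 0.20, 0.18, 0.22 and 0.20 in the 4 classes from 10 kb on. Genes on either side of the limit were alike. Just under it lie cno, CG43795, CG42613 and CG42673 at 0.17, 0.23, 0.18 and 0.18 and, next to the centromere of 2R, uex at -0.16 in the authors' deposited table. Just above it lie caps, LRP1, tkv, CG34370 and Elk, at 0.21, 0.19, 0.10, 0.17 and 0.17 in the same table.

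Away from the centromeres few long genes were listed with a negative value. The reference annotation has 218 autosomal protein-coding genes of at least 50 kb after the same exclusions, and 44 of them were listed (20.2%), against 15.7% of 11399 shorter ones and 21.5% of all tested genes. Short annotated genes include many that larval brain does not express, and the number tested in each class is not known here. Away from the centromeres 30 of 200 long genes were listed with a positive value (15.0%) and 5 with a negative one (2.5%) in the authors' deposited table. These pool unlike classes, 154 genes of 50 to 100 kb with 18.2% positive and 46 of 100 kb and over with 4.35% positive and 2.17% negative, so the larger positive share of long genes was not seen from 100 kb on. For the shorter genes there the shares were 7.72% and 7.79%. From 20 to 50 kb they were 14.9% positive and 4.15% negative. Next to the centromeres 9 of 18 long annotated genes were listed, 0 positive and 9 negative, and CG40178, whose identifier is not in the reference, comes on top of these.

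**Figure D3:**
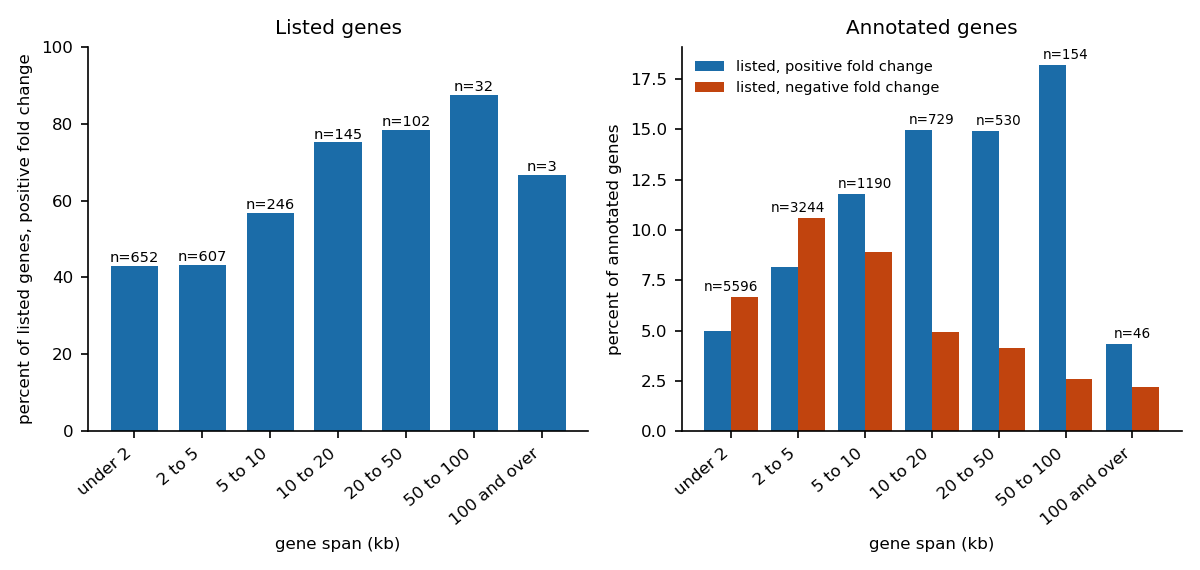
Left, percent of listed autosomal protein-coding genes away from the centromeres with a positive fold change, by gene span in kb, with the number listed above each bar. Right, listed genes with a positive or a negative fold change as a percent of the annotated genes of that span (n above the bars): the positive share is 4.99% under 2 kb and 18.2% from 50 to 100 kb, and the negative share is 10.6% at 2 to 5 kb and 2.6% from 50 to 100 kb. At 100 kb and over, with 46 annotated genes, the positive share is 4.35% and the negative 2.17%.

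Abundance and the length of the mature transcript vary with span, and both were set beside the sign. Among listed shorter genes away from the centromeres the positive share was smaller at higher abundance, from 77.6% under a mean count of 50 to 17.9% over 5000 in the authors' deposited table. For long genes no such order can be read, because the classes under 50 and over 5000 hold 2 genes each. Under 50 counts 1 of 2 long genes was positive. From 50 to 200 counts 4 of 4 were, against 67.0% of shorter ones. With mean counts of 200 to 1000 the long genes were positive in 11 of 14 cases (78.6%) against 43.6% of shorter ones, and with 1000 to 5000 in 12 of 13 (92.3%) against 39.5%. Both long genes over 5000, Dscam1 and Sdc, were positive. Genes of 20 to 50 kb, part of the shorter group, were near the long ones. They were positive in 77.1% of 35 with counts of 200 to 1000, 78.7% of 47 with 1000 to 5000 and 3 of 5 over 5000. For genes under 20 kb the shares were 41.4%, 35.5% and 16.1%. With a mean count of at least 50, 29 of 33 long genes were positive (87.9%) and 623 of 1431 shorter ones (43.5%).

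Long genes also have long gene models, the length without introns, with a median of 7521 bases for members away from the centromeres and 1982.5 for shorter genes there. Where the gene model had at least 6 kb, the positive share was high at every span, 18 of 25 genes under 10 kb (72.0%), 80 of 87 from 10 to 50 kb (92.0%) and 18 of 22 long ones (81.8%) in the authors' deposited table. With a gene model of 4 to 6 kb it was 60.2% of 113, 75.3% of 73 and 9 of 9. With 2 to 4 kb it was 42.1% of 484, 59.3% of 81 and 3 of 4. Under 2 kb it was 44.5% of 883 genes with spans under 10 kb and 6 of 6 from 10 to 50 kb, and no long gene was listed there. Within a class of gene model length the share was larger at 10 to 50 kb than under 10 kb in all 4 classes, and the long genes stood above those of 10 to 50 kb at 2 to 4 and 4 to 6 kb but not at 6 kb and over. For spans under 10 kb and of 10 to 50 kb the share rose with gene model length from 2 kb on. In both it was lower at 2 to 4 kb than under 2 kb. In long genes it was lower at 6 kb and over than at 4 to 6 kb, and some classes hold fewer than 10 genes. Which of span and gene model length, or of the properties that go with them, accompanies the sign more closely was not tested.

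**Figure D4:**
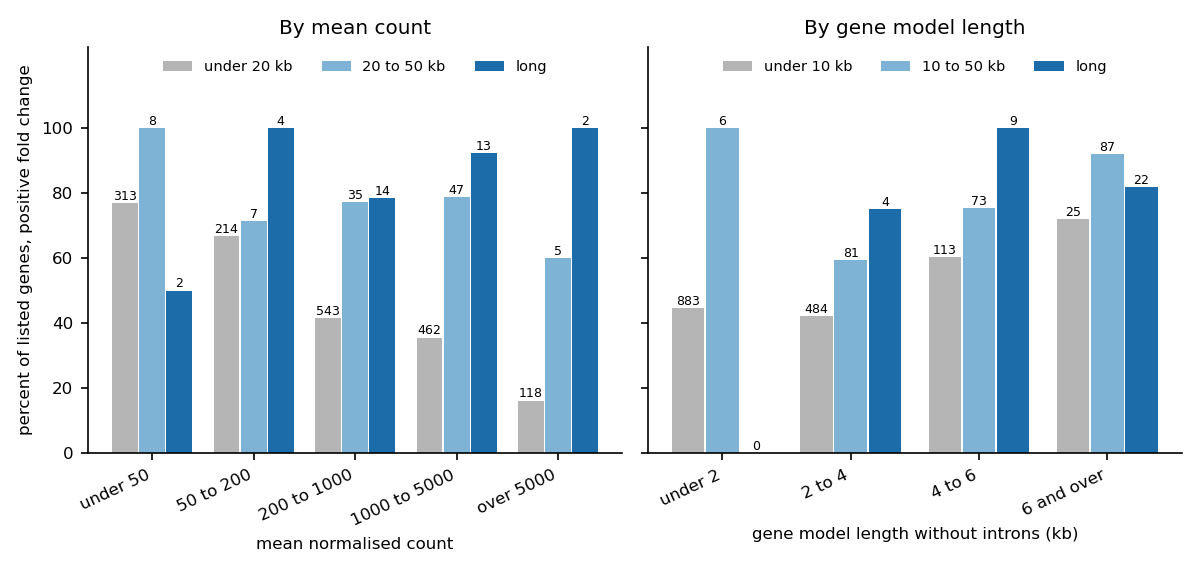
Percent of listed autosomal protein-coding genes away from the centromeres with a positive fold change (y axis), by mean normalised count (left) and by gene model length without introns in kb (right), in groups of gene span, with the number of genes above each bar. In classes of 200 counts and over the bars for long genes (78.6% to 100%) stand above those for genes under 20 kb (16.1% to 41.4%). Those for 20 to 50 kb are also above the latter, at 60% to 78.7%. In the class with at least 6 kb of gene model all 3 bars are at 72.0% or more.

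The structure of the listed long genes was set beside that of long genes not listed. The 30 positive members had a median of 4 annotated transcripts and 10 exons in the transcript with most exons, and a longest intron of 27.9 kb, or 43.5% of the span. Medians for the 174 annotated long genes not listed were 5 transcripts, 11 exons and 43.7 kb. The 9 matched members next to a centromere had a median longest intron of 43.8 kb and a median of 2971 exonic bases, against 7409 in the positive members. The range was wide, from Dscam1 with 75 annotated transcripts to CG33158 with 1, and from 4 to 41 exons, the most in sls. Exons make up 77.7% of the span of sls. In CG42238 a single intron of 84.0 kb makes up 97.0% of the span. All 45 members overlap another annotated feature, transposons included, 30 overlap another protein-coding gene and 13 one on the same strand. The introns of osp hold Adh and Adhr, the alcohol dehydrogenase gene and its neighbour, and neither was listed. In 7 members an overlapping gene was itself listed. Besides the neighbours of CG33158 the called one was Cyp4ac3, which overlaps tkv and was higher at 1.12 in the authors' deposited table.

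Most long genes of the functional classes that these members belong to were not listed. The same held for annotated long autosomal genes as a whole, of which 44 of 218 (20.2%) were listed. Of 22 long autosomal genes in a list of 67 adhesion and guidance genes, 4 were listed, Dscam1, caps, sns and CadN2, all positive in the authors' deposited table. None of the 4 was called by the DESeq2 adjusted p, and 3 had an unadjusted p under 0.05. The other 18, such as CadN, Ten-m, Lar and Fas3, had p of at least 0.1 or were not tested. A hand-made list of transcription factors and chromatin proteins has 20 long genes, such as lola, fru, EcR and Antp, and 0 of them were listed. That list does not hold shn and Nipped-A, the 2 listed members of this kind. RNA-binding proteins had 2 of 14 long genes listed, bru2 and cpo, which moved in opposite directions, while Rbfox1, mbl, pum and bru3 were not listed. Channels, receptors and synaptic genes had 2 of 13 long members listed, signalling genes 3 of 11 and cytoskeleton and muscle genes 2 of 8. Over all spans, 14 of 15 listed adhesion and guidance genes were positive in the authors' deposited table (median 0.18), so the sign in that list was not limited to long members.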

How the data were processed

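RNA was sequenced from 7 libraries (3 control, 4 ISWI knockdown), described in the labels as biological replicates, with a strand-specific kit and reads of 100 bases from 1 end, per the labels. Per the submitters' processing notes STAR 2.5.0b, DESeq2 and the build BDGP6 were used. The step that counted reads per gene is not stated there. The file is the authors' comparison. Per the file headers it holds a base mean (a signal, the mean of counts after the authors' size factors), the deposited log2 fold change, and the deposited p-value and adjusted p-value. The largest p is under 0.1. The adjusted p-values follow the Benjamini-Hochberg rule over 10775 tests, 54 rows have an adjusted p of 1, and 8463 tested genes are not analysed here. Depth per library is unknown and no model was refitted, so the edgeR fit planned for counts was not made.

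Members were found by span in the deposited coordinates. For SEs the authors' p was read as a Wald p. Long and shorter genes were described by counts and medians, with no test between them, because members and lists were chosen with earlier results of these data known and genes are not replicates. Named genes were all calls, the 10 longest, the 5 on each side of 50 kb, the smallest p among those not called and up to 4 per list. The remaining members were added so that each is accounted for. The scripts (Python 3.11.15, pandas 2.3.3, scipy 1.17.1) were tested on simulated data. Ensembl release 115 of BDGP6 gave gene structure. By identifier 43 members matched, 1 by symbol, and 1 did not match, and all 44 matched members had the same span in both. No genome sequence was used.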

Additional observations from a re-analysis of the deposited data

How the results depend on the processing

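The median fold change of the long genes and the counts of positive and negative members kept their sign and stayed within 1.5 times under most alternatives, the exceptions being these. With a limit of 30 kb, 69 genes were positive and 26 negative, with 7 called higher. With a limit of 100 kb, 2 were positive and 5 negative, and the median turned to -0.24. Of these 7 genes 0 were called higher (0 positive at an unadjusted p under 0.05 by DESeq2) and 2 lower. Next to a centromere lie 4 of the 7, all negative. The 3 elsewhere, 2 of them positive, had a median of 0.20. With the excluded families and genes kept, 9 were called lower. Without members that have another annotated gene on their strand, 9 were positive and 1 negative, with 0 called higher (8 positive at an unadjusted p under 0.05) and 1 lower. Without the regions next to the centromeres (added after the data were seen), 5 were negative and 1 called lower. At an adjusted p under 0.01, 0 were called higher (20 positive at an unadjusted p under 0.05 by DESeq2) and 3 lower, and under 0.1, 7 higher. The positive share was 62.5% to 90.0% over all alternatives but the limit of 100 kb (28.6%). No paired analysis was possible because values per library were not used here, and for the same reason no library was left out. The list ends at p under 0.1, so no value speaks of the average change of all long genes, and members with low counts have SEs up to 0.77.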
